A study of Mus musculus with 12 samples.

Results

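The 6 genes Myl4, Myl7, Sln, Bmp10, Nr2f2 and Tbx5, known for higher expression in the atria than in the ventricles of the heart, were followed in hearts of the inbred mouse strain Balb/c. They are 6 of the 18027 genes that a probe of the arrays named with a value, and they were found as the probes whose platform annotation gives 1 of these symbols. The 6 genes had 9 probes in all, 2 for Bmp10, 3 for Nr2f2 and 1 for each other gene, and the probe with the highest mean stood for a gene. The groups were hearts 24 h after a single gavage of 30 mg DMA per kg body weight, hearts 24 h after DMSO, hearts 48 h after the same dose of DMA, and hearts 48 h after DMSO, with 3 arrays each. The labels do not expand DMA, and DMSO was its vehicle and the control. The labels call the 3 arrays biological replicates, and the series text says that RNA was isolated as a pool, so p-values measure the spread between these samples, which may be partly technical. The labels give neither the age nor the sex of the mice, nor which part of the heart was taken beyond the word myocardium. The question that can be asked of these genes is how alike the 12 samples were in atrial transcripts, and whether DMA hearts differed from DMSO hearts in them.

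The mammalian atrium and ventricle build their contractile apparatus from partly different genes. Atrial muscle uses its own myosin light chains and its own small regulator of the calcium pump of the sarcoplasmic reticulum, and it secretes hormones and growth factors. Transcription factors of the T-box and nuclear receptor families set and hold this program, and in the adult mouse heart the light chains serve as markers of atrial muscle. Myl4 encodes the atrial essential light chain and Myl7 the atrial regulatory light chain of myosin. Sln encodes sarcolipin, a small membrane peptide that inhibits the calcium pump. Bmp10 encodes a secreted ligand of the TGF-beta family that is made in the atrium and signals to endothelial cells. Nr2f2 encodes the nuclear receptor COUP-TFII, which acts in atrial muscle cells and also in the endothelium of veins and lymphatic vessels. Tbx5 encodes a T-box factor needed for the formation of the atria and the conduction system.

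RefSeq promoter windows, from 250 bases before to 50 bases after the start of the gene (GRCm38.p6), were at hand for 4 of the 6 genes (Myl4, Myl7, Bmp10 and Nr2f2). They were searched on both strands for 4 motifs. The T-box half-site AGGTGT and the nuclear receptor half-site were taken because Tbx5 and Nr2f2 belong to those families. The nuclear receptor half-site was searched as AGGTCA. The other 2, a site of the zinc finger factors Gata4 and Gata6 and the CArG box of serum response factor, belong to general regulators of heart muscle genes. The first of these was searched as GATAAG. The stretches of the 2 windows that held a match are shown 5′ to 3′ on the gene's strand, with the matches in capitals, since they are where an atrial light chain and the atrial ligand share a motif. The Myl7 stretch, chr11:5898763-5898882 on the minus strand, runs from base -100 to base 20 around the start and holds a CArG box from base -61 and GATAAG from base -41. The Bmp10 stretch, chr6:87428744-87428833 on the plus strand, runs from base -250 to base -161 and holds GATAAG from base -218.
Myl7: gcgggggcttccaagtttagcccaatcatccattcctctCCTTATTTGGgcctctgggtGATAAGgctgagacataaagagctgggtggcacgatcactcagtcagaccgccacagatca
Bmp10: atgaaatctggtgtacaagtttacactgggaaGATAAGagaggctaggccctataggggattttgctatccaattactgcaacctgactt
The windows of Myl4 and Nr2f2 held 0 matches to the 4 motifs. Of 32851 promoter windows of this length, 7.44% held the GATA site, 13.7% the T-box half-site, 16.3% the nuclear receptor half-site and 1.63% a CArG box. A match says only that these letters are present, and the arrays measured no binding.

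The deposited values are log2 intensities, with 32230 to 35905 values per array for 36227 probes. The array medians (6.03 to 6.04 for the 24 h arrays, 6.35 to 6.36 for the 48 h arrays) differed between the times, so levels are compared within a time only. DMA 24 h replicate 3 had a Pearson r of 0.742 with the probe medians over its time's other arrays, against 0.927 to 0.963 for the other 11 arrays with theirs, and 503 of its values sat at its lowest value. DMA 48 h replicate 3, at 0.940, was the lowest of the 48 h arrays, and the others of that time ran from 0.959 to 0.963. It was set aside with DMA 24 h replicate 3, and both are called the arrays that stand apart, but its r was not far from the rest. At 48 h, leaving out the 2 arrays thus removes 1 DMA replicate of 3. DMSO 24 h replicate 2, at 0.927, was lower than DMA 48 h replicate 3 but was not in the pair set aside. DMA minus DMSO at 24 h without it was 0.05 log2 for Myl4, -0.26 for Sln, -0.064 for Bmp10 and -2.15 for Nr2f2. Results that rest on these 2 arrays are given with and without them. Values were missing more often for bright probes: 3.02% of values for probes with a mean under 9, 7.8% for means from 13 to 14 and 40.69% for means over 14. The labelled heart muscle could be checked only in part for that reason. Ttn, the giant sarcomere protein, had values of 13.27 to 14.74 on 10 arrays. The probes of Actc1, cardiac actin, and Atp2a2, the cardiac calcium pump, had no value on any array. Tnnc1, cardiac troponin C, lay between 12.20 and 13.89 on 10 arrays, was missing on 1, and had 6.07 on DMA 24 h replicate 3.

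Of the light chains, Myl4 gave the fuller record, with a value on 11 of 12 arrays, all in the top part of their array (94.35 to 97.4 percent of probes were dimmer). Myl4 read 11.27, 12.85 and 12.44 in DMA hearts at 24 h, against 11.85, 11.999 and 12.42 in DMSO hearts at 24 h. The DMA arrays spread around the DMSO arrays on both sides, with replicate 1 low and replicate 2 high. Myl4 read 12.04, 12.07 and 12.61 in DMA hearts at 48 h, against 12.27 and 12.16 in DMSO hearts at 48 h, where replicate 1 had no value. The groups overlapped at both times. In whole-tissue RNA, less atrial tissue in a sample and less of these transcripts per atrial cell cannot be told apart. Group means were 12.19 ± 0.82 in DMA hearts and 12.09 ± 0.29 in DMSO hearts at 24 h (SD, n = 3 each), and 12.24 ± 0.32 (SD, n = 3) in DMA hearts and 12.22 ± 0.08 (SD, n = 2) in DMSO hearts at 48 h.

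Myl7 had a value on 7 of 12 arrays, among them all 3 of DMA at 48 h. Myl7 read 12.90 and 13.74 in DMA hearts at 24 h (replicates 1 and 3), against 14.15 in DMSO hearts at 24 h (replicate 1). At 48 h it read 13.24, 13.45 and 14.36 in DMA hearts, against 13.25 in DMSO hearts (replicate 3). With 1 DMSO value at each time Myl7 was below the minimum of 2 values per group and was left out of the test. In DMA hearts at 48 h, replicate 1 was the lowest and replicate 3 the highest of the 3 arrays for Myl7, Myl4 and Sln alike.

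**Figure D1:**
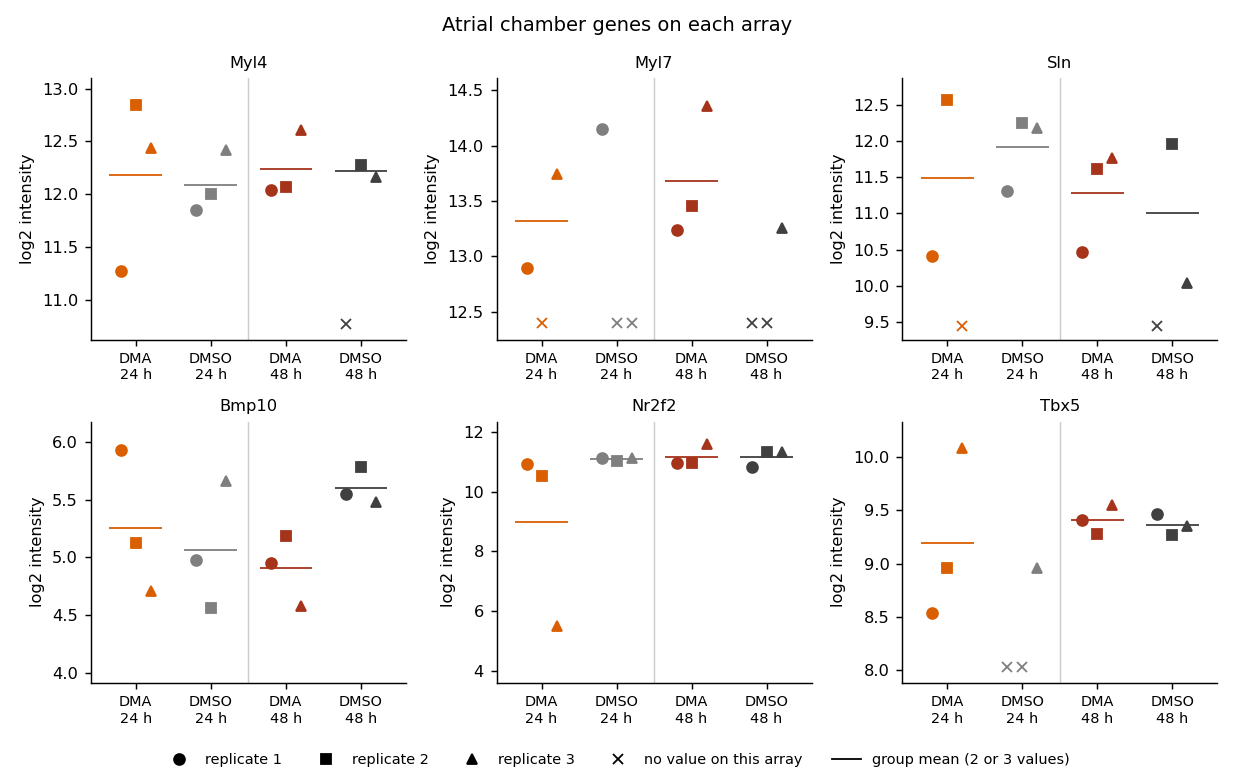
Log2 intensity (y axis) of the 6 atrial genes on each array, with DMA left of DMSO at 24 h and at 48 h. Symbols give the replicate, crosses mark arrays with no value, and lines are the means of groups with 2 or 3 values. The Nr2f2 value of 5.50 on DMA 24 h replicate 3 lies far below the other 11, and Myl7 has a cross on 5 arrays.

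Sln spanned the widest range of the 6 genes once DMA 24 h replicate 3 was set aside. Sln read 10.41 and 12.56 in DMA hearts at 24 h (replicates 1 and 2), against 11.30, 12.25 and 12.17 in DMSO hearts at 24 h. It read 10.47, 11.62 and 11.77 in DMA hearts at 48 h, against 11.96 and 10.04 in DMSO hearts at 48 h (replicates 2 and 3). The 10 values spanned 10.04 to 12.56, and DMA and DMSO overlapped at both times. In the 3 groups in which replicate 1 had values, it was the lowest array of its group for Sln and for Myl4. The fourth such array, DMSO 48 h replicate 1, had no value for Myl4, Myl7 or Sln.

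Bmp10, the secreted ligand, was dim. Its brighter probe had a value on all 12 arrays, with 20.07 to 48.13 percent of probes dimmer. It read 5.93, 5.13 and 4.71 in DMA hearts at 24 h, against 4.98, 4.56 and 5.66 in DMSO hearts at 24 h. At 48 h it read 4.95, 5.19 and 4.58 in DMA hearts, against 5.55, 5.79 and 5.48 in DMSO hearts, so every DMA array lay below every DMSO array. Across all 35401 tested probes, 2.79% had every DMA value below every DMSO value at 48 h. The dimmer Bmp10 probe went the other way: it read 6.34, 4.85 and 5.14 in DMA hearts at 48 h, against 4.60, 4.17 and 4.0003 in DMSO hearts at 48 h, with every DMA array above every DMSO array, as for 4.42% of tested probes. At 24 h the dimmer probe read 4.48, 3.66 and 6.45 in DMA hearts and 6.28, 3.43 and 4.43 in DMSO hearts, which overlapped. Over the 12 arrays the deviations of the 2 probes from their group means had a Pearson r of -0.169 (0.199 over 10 arrays without the 2 that stand apart). The 2 probes are annotated to the same Bmp10 transcript and disagree in direction at 48 h.

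**Figure D2:**
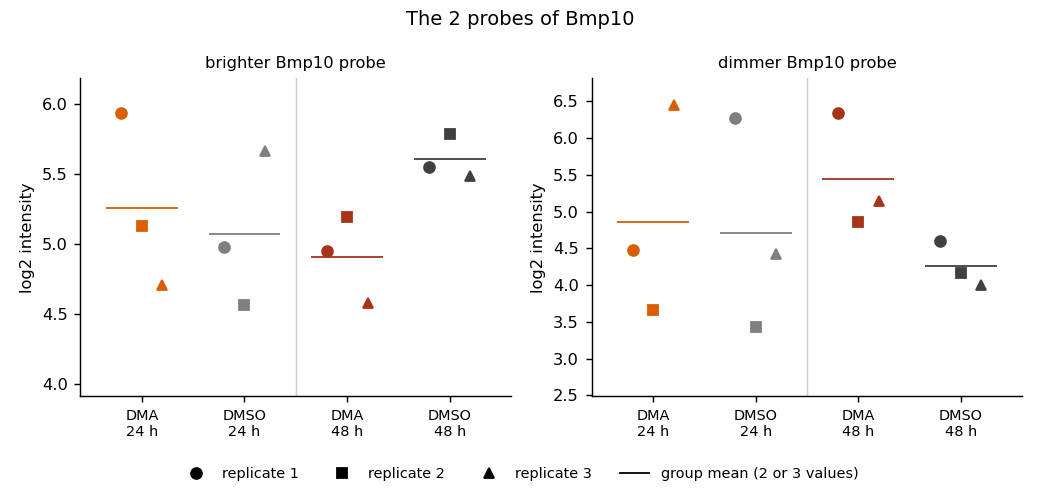
Log2 intensity (y axis) of the brighter and the dimmer Bmp10 probe on each array, with DMA left of DMSO at each time, symbols for replicates and lines for group means. At 48 h the 3 DMA arrays sit below the 3 DMSO arrays for the brighter probe and above them for the dimmer probe.

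Nr2f2, the nuclear receptor, was bright and steady on 11 arrays. Its brightest probe read 10.92, 10.52 and 5.50 in DMA hearts at 24 h, against 11.11, 11.04 and 11.14 in DMSO hearts at 24 h. Every DMA array lay below every DMSO array, as for 3.48% of tested probes at 24 h, and DMA replicate 3 lay several log2 units below the other 2. At 48 h Nr2f2 read 10.95, 10.96 and 11.62 in DMA hearts, against 10.83, 11.35 and 11.34 in DMSO hearts, and the groups overlapped. The second Nr2f2 probe gave 8.89, 8.39 and 6.46 in DMA hearts at 24 h, against 8.94, 8.89 and 9.02 in DMSO hearts at 24 h. Both probes were thus lowest on DMA 24 h replicate 3, and their deviations from group means had an r of 0.953 over 12 arrays and of 0.873 over the 10 arrays without the 2 that stand apart. The third and dimmest Nr2f2 probe had an r of 0.925 with the brightest over 11 arrays and of 0.346 over 9 arrays without the 2 that stand apart. It too was lowest on DMA 24 h replicate 3, at 3.46.

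Tbx5, the T-box factor, had a value on 10 of 12 arrays. It read 8.53, 8.96 and 10.08 in DMA hearts at 24 h, against 8.96 in DMSO hearts at 24 h (replicate 3). At 48 h it read 9.41, 9.28 and 9.55 in DMA hearts, against 9.46, 9.27 and 9.35 in DMSO hearts, the narrowest range of the 6 genes over that time's arrays, with the groups overlapping. The highest Tbx5 value, 10.08, came from DMA 24 h replicate 3, the array with the lowest Nr2f2.

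Of the 6 atrial genes, 4 could be tested, and 0 of the 4 passed an adjusted p of 0.05 at either time (limma, Benjamini-Hochberg over 35401 probes). The share of all probes that passed was 0% at 24 h and 0% at 48 h. At an unadjusted p under 0.05 it was 3.03% (1071 probes) at 24 h and 1.4% (494 probes) at 48 h, with 0 of the 4 atrial genes among them. DMA minus DMSO at 24 h was 0.10 ± 0.437 log2 (SE) for Myl4, with an adjusted p of 0.968 in limma. It was -0.43 ± 0.789 for Sln (adjusted p = 0.913) and 0.19 ± 0.411 for Bmp10 (adjusted p = 0.927). For Nr2f2 it was -2.12 ± 1.09, with an unadjusted p of 0.0762 and an adjusted p of 0.871. The Nr2f2 difference was -0.38 ± 0.251 without the 2 arrays that stand apart, so 1 array sets most of its size.

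At 48 h DMA minus DMSO was 0.02 ± 0.489 log2 (SE) for Myl4 and 0.29 ± 0.789 for Sln. It was 0.003 ± 1.09 for Nr2f2, where the standard error is set by the 24 h array that lies apart, and -0.22 ± 0.251 without the 2 arrays. For Bmp10 it was -0.70 ± 0.411 with the brighter probe (unadjusted p = 0.116) and 1.19 ± 0.804 with the dimmer one (unadjusted p = 0.167, limma). The adjusted p of all 4 was 0.999994 in limma. Differences of a size near these standard errors would not be detectable with 3 arrays a group.

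Where 1 value per group was allowed, Myl7 differed by -0.83 ± 0.738 log2 (SE) at 24 h and by 0.43 ± 0.696 at 48 h, and Tbx5 by 0.23 ± 0.606 at 24 h and by 0.05 ± 0.429 at 48 h. These fits assume that a lone array varies like the other groups. They gave adjusted p-values of 0.873 for Myl7 and 0.940 for Tbx5 at 24 h in limma. The change of the DMA effect between the times was -0.07 ± 0.655 for Myl4, 0.71 ± 1.12 for Sln, -0.89 ± 0.581 for Bmp10 and 2.12 ± 1.54 for Nr2f2, each with an adjusted p of 0.999 in limma. In that contrast 0% of probes passed the adjusted threshold and 1.96% had an unadjusted p under 0.05.

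**Figure D3:**
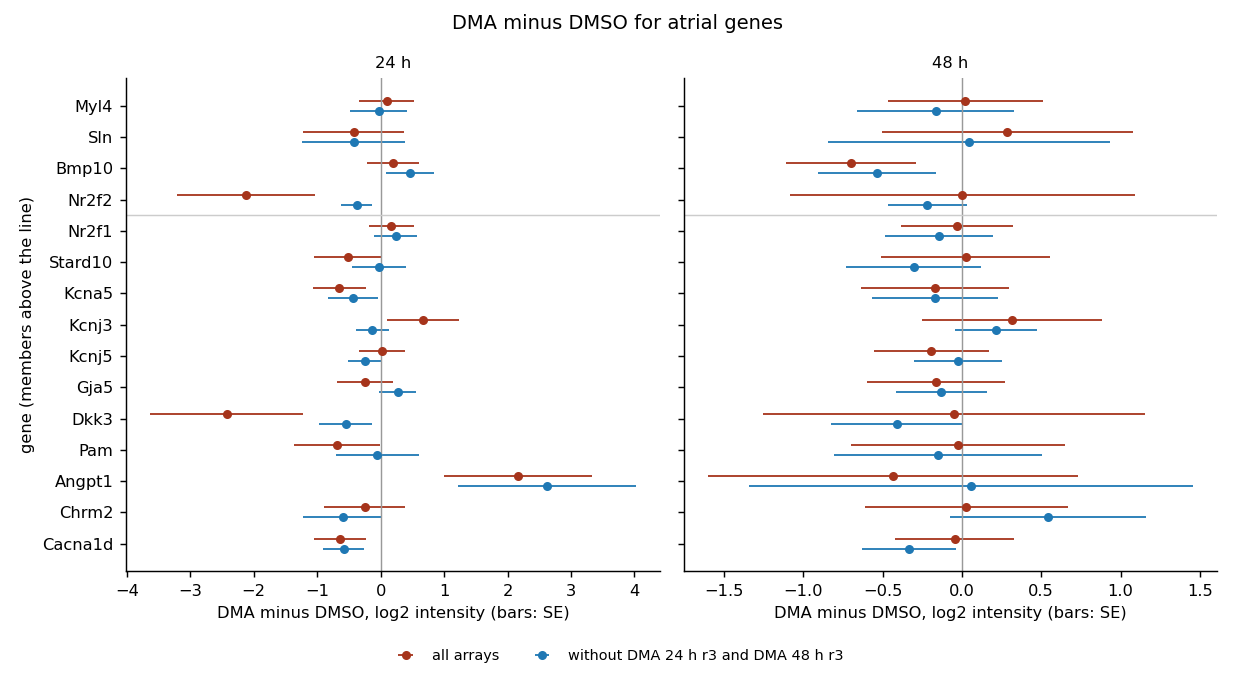
DMA minus DMSO in log2 intensity (x axes, which differ between the panels) at 24 h and 48 h for the 4 tested atrial genes, above the line, and 11 other atrial genes below it. Points are limma estimates and bars their standard errors, with all arrays and without DMA 24 h replicate 3 and DMA 48 h replicate 3. The Nr2f2 estimate at 24 h lies at -2.12 with all arrays and at -0.38 without the 2.

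Same-numbered DMA and DMSO arrays could be set against each other within a time. Myl4 differed by -0.58, 0.85 and 0.02 log2 between DMA and DMSO replicates 1, 2 and 3 at 24 h, and by -0.21 and 0.45 for replicates 2 and 3 at 48 h. Sln differed by -0.90 and 0.31 for replicates 1 and 2 at 24 h, and by -0.34 and 1.73 for replicates 2 and 3 at 48 h. The sign of the Sln difference was that of Myl4 in each of these 4 pairs. Bmp10 differed by 0.95, 0.57 and -0.96 at 24 h and by -0.60, -0.60 and -0.90 at 48 h. Nr2f2 differed by -0.20, -0.52 and -5.64 at 24 h and by 0.12, -0.39 and 0.28 at 48 h.

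Co-variation was described with Pearson's r between the deviations of arrays from their group means, which share the array, its scaling and its hybridisation, and which carry no p-value here. Myl4 and Sln had an r of 0.745 (Spearman's rho 0.745) over 10 arrays. It was 0.732 over the 9 arrays left when the 2 that stand apart were dropped. Sln had no value on DMA 24 h replicate 3, so that step removed 1 array from the 10. In those 9 arrays every group except DMSO at 24 h holds 2 values, whose deviations mirror each other. The r of 0.732 therefore also rests on few free contrasts. When the 2 most extreme Myl4 values were dropped instead, the r of Myl4 and Sln was 0.516 over 8 arrays. A part of the relation thus rests on those 2 values. Of 12748 genes with a value on the 10 arrays that do not stand apart, 302 (2.37%) had an r with Myl4 at or above 0.732 on the same 9 arrays. Those genes were centred on all DMSO 48 h arrays, and Myl4 and Sln on the 2 with values, so the share is not like for like. By that share Sln lay in the upper tail of r with Myl4, together with the others counted.

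With the other members, the r of Myl4 and Sln were of both signs and moved with the arrays used. Myl4 had an r of -0.441 with Bmp10 and of -0.243 with Nr2f2 over 11 arrays, and of 0.517 with Tbx5 over 8 arrays. For the arrays that do not stand apart these were -0.289 and -0.7 over 9 arrays, and 0.903 with Tbx5 over 6 arrays (Spearman's rho 0.486). Those 6 arrays hold 2 Myl4 values per group, whose deviations mirror each other. The r with Tbx5 therefore rests on even fewer free contrasts than that of Myl4 and Sln and is not ranked against it. Sln had an r of -0.233 with Bmp10 and of -0.021 with Nr2f2 over 10 arrays, and of 0.281 with Tbx5 over 7 arrays. When the arrays that stand apart were dropped, these were -0.169 and -0.521 over 9 arrays, and 0.422 over 6 arrays, with the same limit for Tbx5. Bmp10 had an r of -0.866 and Nr2f2 one of -0.94 with Tbx5 over 9 arrays. When the 2 most extreme values of Bmp10, or of Nr2f2, were dropped, these were -0.491 and -0.537 over 7 arrays. For the arrays that do not stand apart they were -0.954 and -0.799 over 7 arrays, 3 of them in the DMSO 48 h group. These r with Tbx5 also rest on few free contrasts. Myl7 shared 4 arrays with Sln and 5 with each of Bmp10, Nr2f2 and Tbx5 in groups of at least 2 values, too few for an r.

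**Figure D4:**
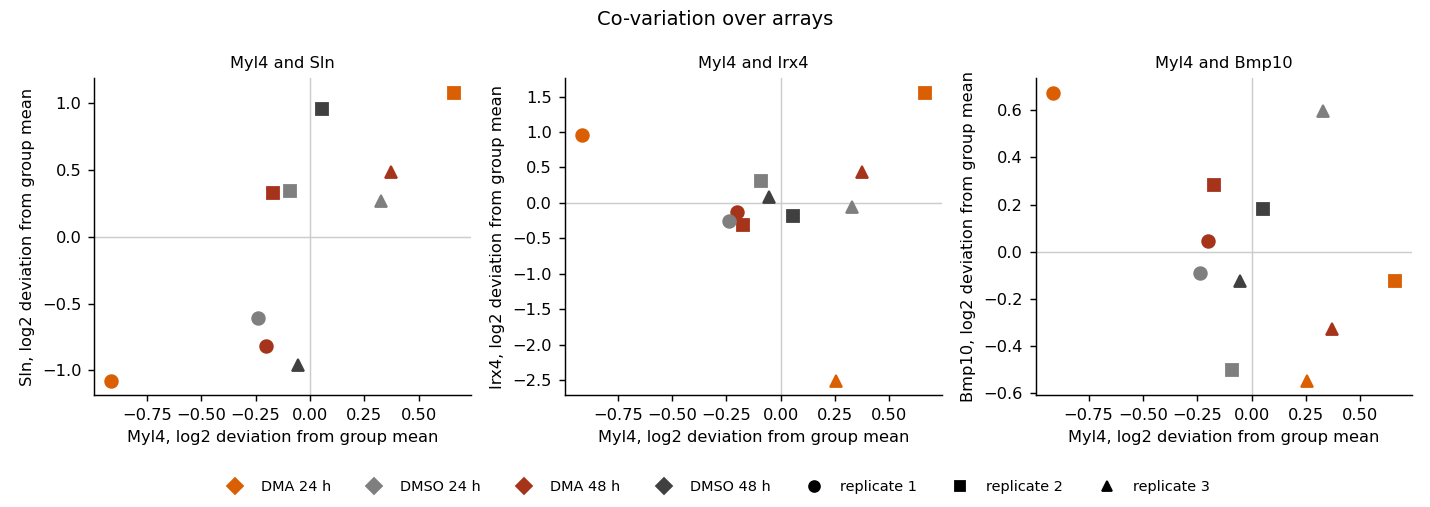
Log2 deviation of each array from its group mean for Sln, Irx4 and Bmp10 (y axes) against that of Myl4 (x axes), with colours for groups and symbols for replicates. Low Myl4 goes with low Sln at the left of the first panel (r of 0.745, 10 arrays), while Bmp10 shows no such rise (r of -0.441, 11 arrays). Irx4 has an r of -0.059 over the 11 arrays shown.

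As a summary per array, the mean deviation of Myl4, Sln, Bmp10 and Nr2f2 from the arrays of the same time was formed. It was -0.138, 0.495 and -1.565 log2 for DMA replicates 1 to 3 at 24 h, against 0.042, 0.195 and 0.579 for DMSO. Arrays with missing values average fewer genes: DMA 24 h replicate 3 lacks Sln, and DMSO 48 h replicate 1 has Bmp10 and Nr2f2 only. At 48 h it was -0.354, 0.000 and 0.185 for DMA, against -0.024, 0.383 and -0.202 for DMSO. The value of -1.565 on DMA 24 h replicate 3 comes from Nr2f2, since Myl4 on that array was 12.44. DMA minus DMSO in this summary was -0.67 at 24 h and -0.11 at 48 h, and -0.09 and -0.21 without the 2 arrays that stand apart. With Myl4 and Sln alone, the summary was -1.101, 0.765 and 0.301 for DMA (the last from Myl4 alone) and -0.360, 0.187 and 0.358 for DMSO at 24 h. At 48 h it was -0.446, 0.141 and 0.489 for DMA and 0.413 and -0.597 for DMSO replicates 2 and 3. DMA minus DMSO was then -0.07 at 24 h and 0.15 at 48 h, both small beside the spread within each group.

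The list of other atrial genes had 16 members, of which 11 were tested. At 24 h 4 were higher and 7 lower in DMA hearts (median -0.25 log2), against 9717 higher and 7894 lower of all 17611 genes tested (median 0.09). At 48 h 3 were higher and 8 lower (median -0.05), against 9048 higher and 8563 lower of all genes (median 0.01). With the 2 arrays left out the counts were 3 higher and 8 lower at each time, with medians of -0.13 and -0.14. The list had 0 genes past the adjusted threshold at either time in limma. The rest of the list was not analysed here.

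Dkk3, a secreted Wnt modulator, had the smallest p of that list at 24 h. It read 10.21, 10.96 and 4.97 in DMA hearts at 24 h, against 10.33, 11.57 and 11.53 in DMSO hearts at 24 h. DMA replicate 3 again lay apart, and the other 2 overlapped the DMSO range. The difference was -2.43 ± 1.20 log2 (SE; adjusted p = 0.871, limma), and -0.55 ± 0.418 without the 2 arrays. Angpt1, a ligand of the endothelial receptor Tek, read 4.57, 5.15 and 3.51 in DMA hearts at 24 h, against 4.95, 0.19 and 1.60 in DMSO hearts at 24 h. Its difference of 2.17 ± 1.17 (adjusted p = 0.871, limma) rested on DMSO arrays near the lowest values of the table, and it was 1.14 without DMSO 24 h replicate 2. At 48 h the smallest p-values were those of the potassium channel genes Kcnj3 and Kcnj5, whose products form the acetylcholine-activated channel of the atrium. They differed by 0.32 ± 0.569 and -0.19 ± 0.362 log2 (SE), with an adjusted p of 0.999994 in limma.

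The r of these genes with Myl4 and Sln lay on both sides of 0. Over the arrays that do not stand apart, the r with Myl4 of the 11 other atrial genes ran from -0.878 to 0.694 (median -0.046, 5 of 11 positive), and of the 8 ventricular genes tested from -0.569 to 0.621 (median -0.081). All 12748 genes had a median r of 0.03 with Myl4. With Sln the medians were 0.084 for the other atrial genes, 0.009 for the ventricular genes and -0.022 for all genes. Stard10, a lipid transfer protein gene, had an r of 0.694 with Myl4 over 9 arrays, and Dkk3 one of 0.741 with Sln. Kcna5, a potassium channel gene of that list, went against both, with an r of -0.878 with Myl4 and of -0.789 with Sln. When only the 2 most extreme Myl4 values were dropped, Kcna5 had an r of -0.423 with Myl4 over 8 arrays. When only the 2 most extreme Sln values were dropped, it had one of -0.703 with Sln over 7 arrays. Irx4, a ventricular transcription factor gene, had an r of 0.621 with Myl4, near those of Stard10 and Dkk3 (0.643). With the arrays that stand apart kept, 11 in all, these were -0.059 for Irx4, 0.393 for Stard10 and -0.021 for Dkk3. Of the 8 ventricular genes, 4 had a positive r with Myl4 and 5 with Sln. Kcnip2 had an r of -0.514 with Myl4 and of -0.913 with Sln over 9 arrays. Lrrc10 had one of -0.569 with Myl4 and of 0.145 with Sln over 8 arrays. Fhl2 had one of -0.214 with Myl4 and of -0.542 with Sln over 7 arrays. With the arrays that stand apart kept, Kcnip2 had -0.619 with Myl4 and -0.884 with Sln, Lrrc10 had 0.06 with Myl4, and Fhl2 had -0.685 with Sln.

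Ventricular genes give the reading from the other chamber. Of 10 listed, 8 were tested, and Myl2 and Myl3, the ventricular light chains, had too few values. At 24 h 1 was higher and 7 lower in DMA hearts (median -0.89 log2), and 4 higher and 4 lower (median 0.04) without the 2 arrays. At 48 h 5 were higher and 3 lower (median 0.04), and 3 higher and 5 lower (median -0.01) without them. Irx4 read 10.59, 11.19 and 7.12 in DMA hearts at 24 h, against 10.49, 11.06 and 10.70 in DMSO hearts at 24 h. Hey2, a Notch target gene of the compact ventricular wall, read 6.12, 6.11 and 6.70 in DMA hearts at 24 h, against 5.03 and 5.79 in DMSO hearts at 24 h, where replicate 1 had no value. Every DMA value of Hey2 lay above every DMSO value, as for 4.51% of tested probes, and the difference was 0.90 ± 0.396 log2 (SE), with an unadjusted p of 0.0453 and an adjusted p of 0.871 in limma. The Hey2 difference was 0.52 without DMSO 24 h replicate 2, and 0.71 (unadjusted p = 0.0748, limma) without the 2 arrays that stand apart. Irx3 differed by -1.54 ± 0.928 at 24 h and by -0.06 without the 2 arrays. At 48 h Kcnip2, a subunit gene of the transient outward potassium channel, differed by 0.80 ± 0.599, and Lrrc10, a heart muscle gene, by 0.32 ± 0.470.

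Genes of muscle in both chambers had 6 of 14 members tested, 3 higher and 3 lower in DMA hearts at 24 h (median -0.61 log2) and 2 higher and 4 lower at 48 h (median -0.22). Once the 2 were left out they were 5 higher and 1 lower at 24 h (median 0.55) and 4 higher and 2 lower at 48 h (median 0.31), so both medians turned. Tnnc1 differed by -1.68 at 24 h, and by 0.72 without the 2 arrays. Ryr2, the calcium release channel gene, differed by 0.55 at 24 h and 0.43 at 48 h, and by -0.08 and 0.35 without the 2 arrays. Myh6, the alpha myosin heavy chain gene, differed by -0.40 at 48 h, and by 0.59 without them. The list had 0 genes past the adjusted threshold in limma.

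Partners and relatives of Tbx5 among cardiac transcription factors were all measured, 14 of 14. At each time 6 were higher and 8 lower in DMA hearts (median -0.04 log2 at both). With the 2 arrays left out the 48 h counts turned to 8 higher and 6 lower (median 0.08). Nkx2-5, the homeobox factor of heart muscle, read 10.65, 11.32 and 6.39 in DMA hearts at 24 h, against 10.70, 11.24 and 11.14 in DMSO hearts at 24 h. Its difference was -1.57 with all arrays and -0.04 without the 2. Meis1, a homeobox factor gene, differed by -2.07 at 24 h, and by 0.04 without them. At 48 h Hand1 differed by 0.58 and Hand2 by -0.88, basic helix-loop-helix factor genes of the developing ventricles. With 1 array dropped, the Hand2 difference was -0.062 (DMA 48 h replicate 1 dropped) or -1.46 (replicate 3 dropped). The list had 0 genes past the adjusted threshold in limma.

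Around Bmp10, 14 of 16 genes of BMP9 and BMP10 signalling were tested, and Eng and Smad7 were not analysed here. At 24 h 9 were higher and 5 lower in DMA hearts (median 0.14 log2), and at 48 h 3 were higher and 11 lower (median -0.26). When the 2 were left out the 48 h counts were 10 higher and 4 lower (median 0.12), so the direction of the list at 48 h turned with them. Id1, a target gene of BMP signalling, read 7.16, 6.83 and 9.47 in DMA hearts at 24 h, against 7.23, 4.93 and 6.16 in DMSO hearts at 24 h. Its difference was 1.72 ± 0.829 log2 (SE; adjusted p = 0.871, limma), and 0.89 ± 0.577 without the 2 arrays. Gdf2, which encodes BMP9, differed by -0.66 at 24 h. At 48 h Tmem100, a target gene in endothelium, differed by -0.36, and Smad4, the shared signal transducer, by -0.80, and by 0.15 without the 2 arrays.

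Relatives of Sln and the calcium pumps had 3 of 8 genes tested, 3 lower at 24 h (median -0.29 log2), and 1 higher and 2 lower at 48 h (median -0.07), which turned to 2 higher and 1 lower (median 0.12) with the 2 arrays left out. Mrln, which encodes myoregulin of skeletal muscle, differed by -0.93 at 24 h and by -0.18 without the 2 arrays, and by -0.07 at 48 h. Atp2a1, the skeletal muscle pump gene, differed by -0.29 at 24 h, and Atp2a3 by -0.24 at 48 h. Skeletal muscle, which also expresses Sln, had 10 of 13 genes tested, with 4 higher and 6 lower at 24 h (median -0.29) and 5 higher and 5 lower at 48 h (median -0.03, and 7 higher and 3 lower with a median of 0.06 with the 2 arrays left out). Vein and lymphatic endothelium, which also expresses Nr2f2, had 9 of 9 genes tested, with 3 higher and 6 lower at 24 h (median -0.10) and 5 higher and 4 lower at 48 h (median 0.01). Sinus node and conduction genes, some of which belong to cells of the right atrium, had 7 of 9 tested, with 5 higher and 2 lower at 24 h (median 0.04) and 2 higher and 5 lower at 48 h (median -0.16), which turned to 4 higher and 3 lower (median 0.01) with the 2 arrays left out. In these 4 lists 0 genes passed the adjusted threshold in limma.

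The genes whose deviations from group means were most like the average of the measured atrial genes changed with the arrays used. Over 12 arrays and 12355 genes the highest r were those of Mon1b (0.956), Plac8 (0.943), Vmn1r21 (0.942), 1700101I11Rik (0.939) and Mtap (0.938), and the lowest those of Pxdn (-0.948), Wnt11 (-0.943) and Olfr1501 (-0.941). Over the 10 arrays that do not stand apart and 12748 genes they were Mchr1 (0.971), Cnn1 (0.955), Slc5a7 (0.945), Adipoq (0.923) and Serpinb9b (0.921), and the lowest Slco6d1 (-0.971), Krtap4-7 (-0.956) and 4930563J15Rik (-0.954). The 2 rankings share 0 of these names. The 12-array average includes the Nr2f2 value of 5.50 on DMA 24 h replicate 3, so that 1 array weighs heavily in the first ranking. The lowest Vmn1r21 value, 1.371, equals the lowest value of that array, at which 503 of its values sat.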

How the data were processed

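The authors deposited 1 table of log2 intensities for 12 one-colour arrays, on which biotinylated cRNA was stained with streptavidin-Cy5, per the labels' protocols. Background correction, normalization and the reason for missing values are not given in the sources used here. Array medians lie close together within each time and differ between the times, so levels were not compared across times. The platform annotation gave 1 gene symbol for 21615 probes, several for 681 and none for 13931.

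Probes with at least 2 values in each group (35401) were fitted in limma 3.58.1 (R 4.3.3) with lmFit and eBayes, 1 term per group, all 12 arrays, and Benjamini-Hochberg adjustment over all probes at a threshold of 0.05. The remaining 826 were left out. The fit was tested on simulated data. Correlations are Pearson's r between deviations from group means, and the arrays' number limits the precision. The correlations and plots were made in Python 3.11.15 with matplotlib 3.10.9.

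Members and the 17 other lists were chosen with earlier results of these data known. Of each list near the members, the 2 tested genes of smallest unadjusted p at each time were named, together with genes of too few values and any a result turns on; Irx4, Fhl2, Stard10, Kcna5 and the tissue check genes were named after their values were seen. Alternatives were other probes, filters and normalizations, array weights, only the 6 arrays of a time, other moderation, a replicate block, and arrays left out. The labels number the replicates 1 to 3. Same-numbered DMA and DMSO arrays correlated at 0.11 to 0.186 at 24 h and 0.266 to 0.329 at 48 h in their deviations, each above 0.1. Arrays of different numbers correlated at -0.101 to -0.0117 at 24 h and -0.208 to -0.0836 at 48 h. Deviations cancel out within a group, so positive r between same numbers go with negative r between the others. Arrays of 1 number and time were therefore treated as pairs in the block, on the strength of the data and not of the labels.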

Additional observations from a re-analysis of the deposited data

Results flagged for a closer look

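Gdf2, which encodes the Bmp10 relative BMP9, stood on opposite sides at the 2 times. It read 6.44, 6.16 and 5.53 in DMA hearts at 24 h, against 6.25, 7.41 and 6.45 in DMSO hearts at 24 h, and every DMA value lay below the DMSO mean. The 24 h difference was -0.30 without DMSO 24 h replicate 2. At 48 h Gdf2 read 6.66, 6.66 and 6.45 in DMA hearts, against 6.57, 6.47 and 6.11 in DMSO hearts, and every DMA value lay above the DMSO mean. The groups overlapped at both times. This rule was applied to the members and named genes, and its share over all genes was not counted. The difference was -0.66 log2 at 24 h and 0.20 at 48 h, a change of 0.86 between the times (SE 0.552, adjusted p = 0.999, limma), which did not pass the threshold. Groups of 3 arrays were too small for the check on single arrays far from their group.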

How the results depend on the processing

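The counts of probes past the adjusted threshold were 0 in all 3 contrasts under other filters, centring, quantile normalization, array weights, other moderation and the 6 arrays of 1 time alone. With the replicate block the counts were also 0 (1698 probes at an unadjusted p under 0.05 at 24 h, 749 at 48 h and 1159 for the change between times), and it changed no other call. With 1 array left out the counts ran from 0 to 14 at 24 h, from 0 to 1 at 48 h and from 0 to 4 for the change between times. Without DMA 24 h replicate 1 the 24 h count was 9 and without DMA 24 h replicate 2 it was 14, all lower in DMA hearts, and both fits kept DMA 24 h replicate 3. Without both arrays that stand apart the 48 h count was 3. The r of Myl4 and Sln was 0.816 with the replicate block removed as well. That fit leaves very few free contrasts for these 2 genes, so this value cannot show how firm their relation is. Of 36 gene differences, 408 values under these alternatives gave 24 with the sign turned and 0 past the threshold, and 432 values with 1 array left out gave 29 and 0. The cause of a turned sign was not tested. With array weights the turned values at 24 h were -0.23 for Myl4, -0.026 for Ryr2 and 0.67 for Tnnc1, at 48 h -0.073 for Myl4, -0.14 for Nr2f2, 0.13 for Myh6 and 0.20 for Atp2a3, and 0.15 for the change of Myl4 between times. With quantile normalization at 48 h they were -0.0195 for Myl4 and -0.029 for Nr2f2. With the dimmer Bmp10 probe they were 1.19 at 48 h and 1.04 for the change between times, and with the dimmest Nr2f2 probe -0.70 and -0.27. With the replicate block the change of Myl4 was 0.026. Without both arrays they were -0.031 for Myl4, -0.081 for Ryr2, 0.72 for Tnnc1 and 0.041 for Meis1 at 24 h, and -0.17 for Myl4, -0.22 for Nr2f2, 0.59 for Myh6, 0.15 for Smad4 and 0.41 for Atp2a3 at 48 h. With 1 array left out, the 24 h differences that turned ran from -1.51 to 0.65 for Sln, -0.15 to 0.49 for Bmp10, -0.24 to 0.55 for Myl4, -0.081 to 0.86 for Ryr2, -2.99 to 0.72 for Tnnc1 and -3.17 to 0.041 for Meis1. At 48 h they ran from -0.67 to 1.24 for Sln, -0.17 to 0.12 for Myl4, -0.22 to 0.12 for Nr2f2, -1.48 to 0.67 for Myh6, -1.41 to 0.15 for Smad4, -0.75 to 0.41 for Atp2a3 and -0.27 to 0.0503 for Mrln. For the change between times they ran from -0.53 to 0.26 for Myl4 and from -0.36 to 1.79 for Sln.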

Other observations

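Vessel genes of the same hearts are given as values. Pan-endothelial genes had 9 of 9 tested, with 5 higher and 4 lower in DMA hearts at 24 h (median 0.34 log2) and 0 higher and 9 lower at 48 h (median -0.53). Without the 2 arrays that stand apart they were 8 higher and 1 lower at 24 h (median 0.80) and 4 higher and 5 lower at 48 h (median -0.05), so the 48 h count turned on DMA 48 h replicate 3. Kdr, a receptor of VEGF, read 11.36, 11.60 and 12.29 in DMA hearts at 24 h, against 11.53, 9.82 and 10.75 in DMSO hearts at 24 h. Tek, the receptor of Angpt1, read 9.67, 9.31 and 9.68 in DMA hearts at 24 h, against 9.72, 5.80 and 8.25 in DMSO hearts at 24 h. DMSO replicate 2 was the lowest 24 h array for Kdr, Tek, Angpt1 and Id1 alike. Smooth muscle genes had 8 of 8 tested, with 6 higher and 2 lower at 24 h (median 0.46) and 1 higher and 7 lower at 48 h (median -0.34), and 6 higher and 2 lower (0.23) and 2 higher and 6 lower (-0.20) without the 2 arrays. These 2 lists had 0 genes past the adjusted threshold in limma.

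The other 6 lists of cells that a dissected heart can hold are given as counts higher and lower in DMA hearts, with medians in log2. Fibroblast genes had 5 higher and 4 lower at 24 h (median 0.11) and 5 higher and 4 lower at 48 h (0.15), and 6 higher and 3 lower (0.67) and 9 higher and 0 lower (0.20) without the 2 arrays that stand apart. Mesothelium and epicardium genes had 4 higher and 3 lower at each time (0.01 at both), and 5 higher and 2 lower (0.19) and 3 higher and 4 lower (-0.039) without them. Lung and airway genes had 3 higher and 4 lower at 24 h (-0.07) and 5 higher and 2 lower at 48 h (0.29), and 2 higher and 5 lower (-0.39) and 6 higher and 1 lower (0.62) without them. Adipocyte genes had 3 higher and 2 lower at 24 h (0.21) and 4 higher and 1 lower at 48 h (0.09), and 2 higher and 3 lower at each time (-0.04 at both) without them. Thymus and lymphocyte genes had 6 higher and 2 lower at 24 h (0.55) and 4 of each at 48 h (-0.0012), and 4 of each (0.02) and 5 higher and 3 lower (0.13) without them. Blood genes had 1 of each at 24 h (0.11) and 0 higher and 2 lower at 48 h (-0.52), and 2 higher and 0 lower (0.31) and 0 higher and 2 lower (-0.45) without them. These lists had 0 genes past the adjusted threshold in limma.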
